A study of Homo sapiens with 12 samples.

Results

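The cytosolic ribosomal protein genes were examined in Caki-1, an established line from human renal cell carcinoma, comparing a derivative resistant to cabozantinib with the parental cells. Rows of the gene tables were taken whose symbol is RPL or RPS with a number and at most a short suffix, together with RPSA, RPLP0, RPLP1, RPLP2 and FAU. Ribosomal S6 kinases were left out. This gave 88 of 20114 gene symbols, of which 78 encode the proteins of the ribosome itself (called canonical here, 32 of the small subunit and 46 of the large subunit) and 10 are paralogue symbols. RACK1, whose product also sits in the ribosome, carries another kind of symbol and was listed among the translation factors.

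The resistant line (2 RNA libraries) was selected from Caki-1 in McCoy's 5A medium with 5 µM cabozantinib, which inhibits several receptor kinases, MET, AXL and VEGF receptors among them. The dose was raised to 20 µM over 2 months, and the line was then kept in 10 µM of the drug. The parental line (2 RNA libraries) was kept in RPMI 1640 medium. Drug, medium and selection therefore differ together between the lines and cannot be told apart. The sources used here do not say whether the resistant line is 1 clone or a mixed population. The series has 12 samples, and the 4 H3K27ac and 4 input libraries were not used here. The labels do not say whether replicates were grown separately, and the p-values hold for the spread between these libraries alone.

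A ribosome is built from ribosomal RNA and a single copy of most of these proteins, which the cell makes in near equal amounts. Their mRNAs are short and among the most abundant in dividing cells. Most begin at a C followed by a run of pyrimidines, the 5′ terminal oligopyrimidine (TOP) tract, through which mTOR and LARP1 control their translation and stability. Unassembled proteins of the family are degraded, and free RPL5 and RPL11, bound to 5S ribosomal RNA, can hold back MDM2 and so stabilise p53. Several members are named as disease genes, since loss of a single allele of RPS19, RPS24, RPS26, RPS7, RPL5, RPL11, RPL26 or RPL35A underlies Diamond-Blackfan anaemia.

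Start sites of 10 members are shown because the tract defines the class, and they include the members with the lowest and highest resistant to parental ratios. RPS23 was added after its values were seen. Each sequence holds the 20 bases before and the 20 bases from the RefSeq start (GRCh38.p14), and capitals mark a tract that begins with C, continues with at least 4 further C or T, and has its first base within 5 bases of that start. RPS15 and RPL26L1 had no such tract there.
RPL13A (chr19:49487588-49487627, plus strand): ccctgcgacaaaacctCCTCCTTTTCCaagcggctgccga
RPL26 (chr17:8383174-8383213, minus strand): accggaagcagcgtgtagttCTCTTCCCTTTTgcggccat
RPS24 (chr10:78033843-78033882, plus strand): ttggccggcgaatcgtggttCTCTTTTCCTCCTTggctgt
RPS7 (chr2:3575240-3575279, plus strand): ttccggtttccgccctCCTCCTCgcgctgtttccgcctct
RPLP1 (chr15:69452798-69452837, plus strand): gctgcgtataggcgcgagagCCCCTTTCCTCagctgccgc
RPLP2 (chr11:809947-809986, plus strand): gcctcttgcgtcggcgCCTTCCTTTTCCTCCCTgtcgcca
RPS23 (chr5:82278335-82278374, minus strand): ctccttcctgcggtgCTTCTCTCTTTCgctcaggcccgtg
RPL22L1 (chr3:170870176-170870215, minus strand): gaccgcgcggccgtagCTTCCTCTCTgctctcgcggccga
RPS15 (chr19:1438376-1438415, plus strand): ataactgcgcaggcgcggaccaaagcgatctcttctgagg
RPL26L1 (chr5:172958709-172958748, plus strand): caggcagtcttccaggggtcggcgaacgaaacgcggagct
Promoter entries matched 70 of the 88 members and 63 of the 78 canonical genes. The tract was found in 51 of the 63, or 81.0%, against 21.1% of all 27305 promoters in the same table and 22.8% of the 9703 that belong to tested genes. On either strand of the window from 250 bases before to 50 after the start, the letters CCGGAA, the core bound by ETS factors such as GABPA, stood in 34 (54.0%), against 17.6% of all promoters and 29.6% of those of tested genes. TATAA was in 11 (17.5%), below the 21.1% of all promoters and above the 10.8% of those of tested genes. CACGTG, bound by MYC and related factors, was in 3 (4.76%, against 7.43% of all promoters and 10.2% of those of tested genes), and AAGATGG, the core of the YY1 motif, in 9 (14.3%, against 6.06% and 7.48%). None of these 4 strings contains another. The canonical genes with a tract had a median log2 fold change of -0.17, and the 12 without one had -0.09. The difference between these medians was not tested.

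Library totals were 14664712 and 12851392 estimated counts in the resistant line and 10605109 and 10584085 in the parental line. Levels are given as library-scaled counts (CPM) after edgeR's TMM scaling, or as the deposited TPM, which also allow for length. A fold change is resistant over parental on the log2 scale. Of all rows, 12792 genes had enough counts to be tested. The parental libraries were close to each other (chi-square of 1.94 per gene), while the resistant ones were far apart (48.6). PAX8, KRT8 and KRT18, markers of kidney epithelium, were present at 206 to 572 CPM in all 4 libraries, whereas PAX2 and LRP2 had no counts. Of 4 markers of clear cell renal carcinoma, CA9 had at most 1.09 CPM and NDUFA4L2 at most 3.57 CPM in any library. VIM had 2812 and 2991 CPM in the resistant line and 4061 and 4057 CPM in the parental line, and VEGFA fell (71.2 and 76.4 CPM in resistant, 129 and 131 CPM in parental libraries; edgeR adjusted p = 0.0292). Of 15 markers of blood, endothelial, stromal and liver cells, 14 were in the tables and 6 were tested, and their summed level was 63.7 and 64.9 CPM in the resistant libraries against 149 and 158 CPM in the parental ones. Of the 6 tested, 3 were called lower (CD68, RGS5 and DCN; edgeR adjusted p = 0.0208, 0.0103 and 0.0129) and 0 higher. Of all genes, 3.41% were called lower. CD68 had 44.8 and 40.7 CPM in resistant libraries, against 84.7 and 88.3 CPM in parental ones. RGS5 had 5.69 and 5.67 CPM in resistant libraries, against 19.8 and 20.1 CPM in parental ones. ALB lay higher in the resistant line without a call. CD3E, CDH5 and HBB were at 0. Whether these differences between the lines bear on the ribosomal protein genes was not tested.

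Canonical ribosomal protein genes held 4.72% and 6.54% of all counts in the resistant libraries, against 6.08% and 6.05% in the parental libraries. Resistant library 1 was thus below both parental libraries and resistant library 2 above them. Per length the order differed: the genes made up 14.8% and 18.1% of TPM in the resistant libraries, against 19.4% in each parental library. With a single length per gene for all libraries the resistant shares were 14.7% and 18.1%, and the parental ones 19.5% and 19.3%. The small subunit supplied 36.7% and 37.0% of the canonical counts in the resistant line, against 36.2% and 36.4% in the parental line, so the balance between the subunits moved by under 1 percentage point. In bulk RNA, fewer cells with these mRNAs and less of them per cell cannot be told apart.

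No member was called between the lines by edgeR's quasi-likelihood test at an adjusted p of 0.05. That was 0 of the 84 tested members, of which 78 were canonical and 6 paralogues, while 2.96% of all tested genes were called higher and 3.41% lower. At an unadjusted p under 0.05, edgeR had 8 members lower (RPL13A, RPL26, RPL28, RPL31, RPL35A, RPS7, RPS12 and RPS27A) and 1 higher (RPL26L1), against 13.6% and 13.4% of all genes. DESeq2's Wald test called RPL13A and RPL26 lower, where 5.76% of all genes were called lower. Limma-trend called RPL13A, RPL26, RPL31 and RPS7 lower on log2(TPM + 1), where 2.32% of genes were called lower, and the same 4 members on log2(TPM + 0.1), where 2% were. The median canonical log2 fold change was -0.15, with 63 genes below 0 and 15 above, in a range of -0.72 to 0.18, while the median over all tested genes was 0.02. Both resistant libraries lay below both parental ones in CPM for 26 of the 78 canonical genes, which compares with 29.7% of all tested genes. None of the 78 lay above both, against 30.9% of all genes, and for the other 52 the lines overlapped. Of the 4 members not tested, RPL3L, a paralogue known from muscle, had 1 count in each resistant library and 0 in the parental ones, RPL10L, a paralogue known from testis, had 0 throughout, and the other 2 are Y-linked and not described.

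The resistant libraries differed from each other in the same direction for every canonical gene. Set against the parental mean, resistant library 1 was lower for all 78, with a median log2 difference of -0.45 (a fold of 0.733). Resistant library 2 was lower for 28 and higher for 50, with a median of 0.11 (a fold of 1.08) and a range of -0.48 to 0.53. Library 2 exceeded library 1 for each of the 78, by a median of 0.57. The parental libraries differed by a median of only -0.02 (library 2 over library 1). Among the widest gaps between resistant libraries were those of RPS26 (0.86) and RPL41 (0.82), which encodes the shortest protein of the ribosome. RPL4 (0.23) and RPL5 (0.25) had the narrowest.

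**Figure D1:**
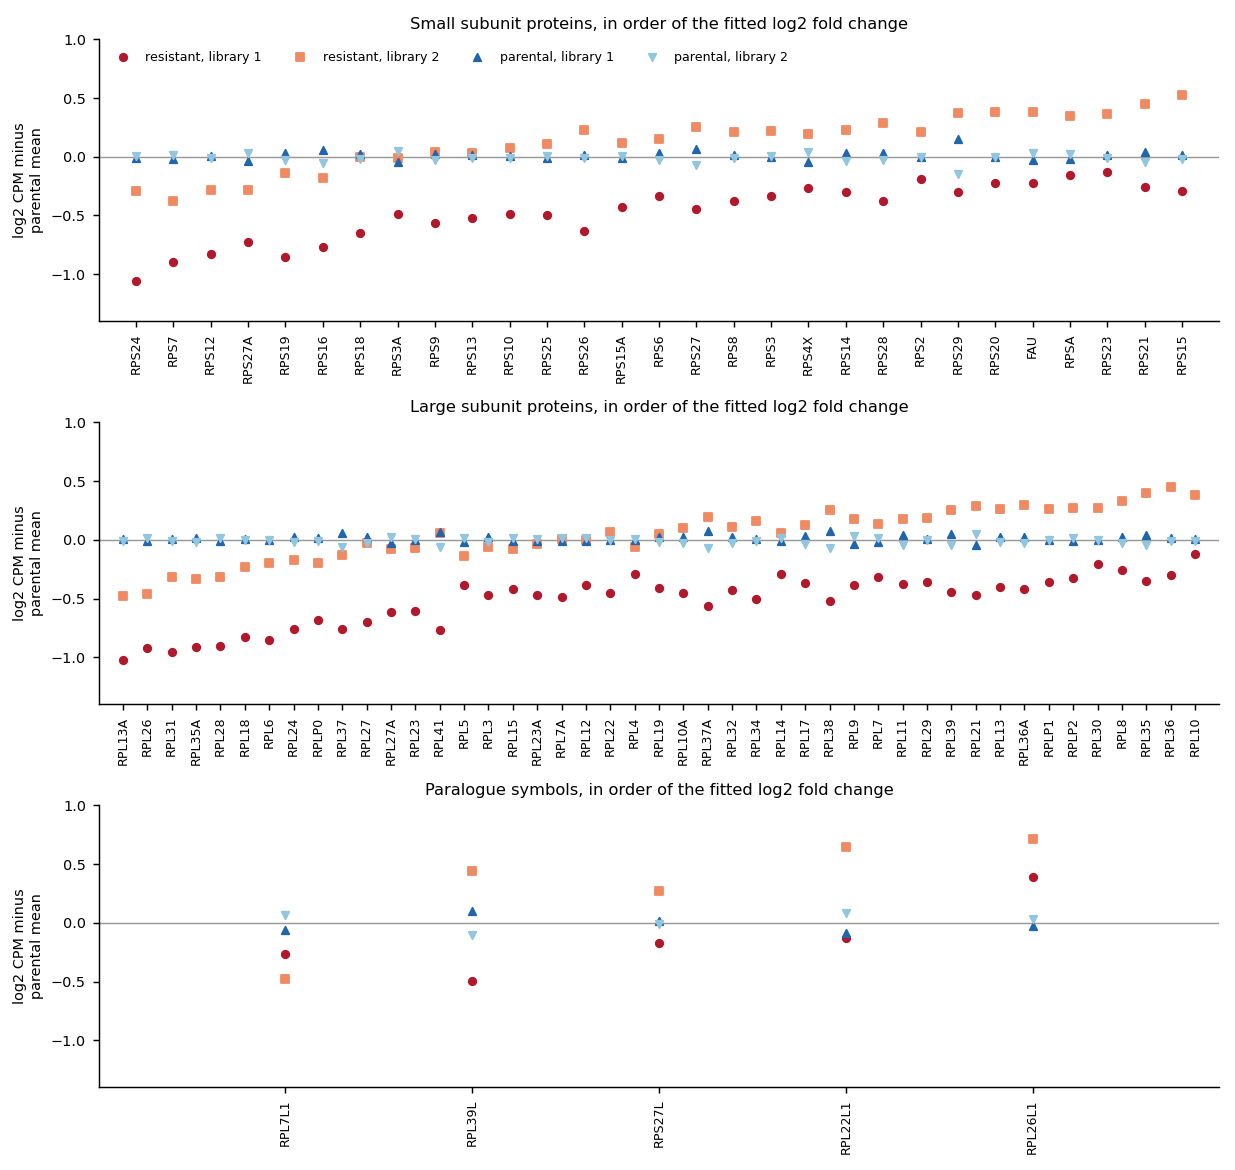
Log2 CPM minus the parental mean of 74 canonical genes and 5 paralogues, for both resistant and both parental libraries, with members ordered by fitted log2 fold change within the small subunit, the large subunit and the paralogues. Resistant library 1 lies below 0 for all 74 canonical genes drawn, resistant library 2 for 26 of them, and the parental libraries stay close to 0.

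Leaving out 1 resistant library decided the calls. Without resistant library 1, edgeR called 42 members higher and 19 lower, among 26.8% and 27.5% of all genes called in those directions. Without resistant library 2, it called 1 higher (RPL26L1) and 80 lower, among 16.7% and 19.9% of all genes. The canonical median log2 fold change was 0.11 without library 1 and -0.46 without library 2. In these fits the lone resistant library was assumed to vary like the parental pair. The canonical median was -0.13 without parental library 1 and -0.16 without parental library 2. There the lone parental library was assumed to vary like the resistant pair, which was far apart. A lack of calls in those fits therefore says little about the members.

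The difference between the resistant libraries followed mRNA length across all genes. Effective length, from the ratio of counts to TPM, was short for this family: the median canonical gene had 0.177 of the length of the median gene, and 74 of the 78 fell in the range of the shortest of 10 equal length classes of other genes. In that class, other genes had a median log2 difference of 0.02 in resistant library 1 and 0.48 in resistant library 2. In the longest class the medians were 0.0003 and -0.51. For the 215 other genes as short as or shorter than the median canonical gene, they were 0.01 and 0.61. The canonical medians, -0.45 in library 1 and 0.11 in library 2, were below those of other short genes in both. What set the length trend of resistant library 2 was not tested.

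**Figure D2:**
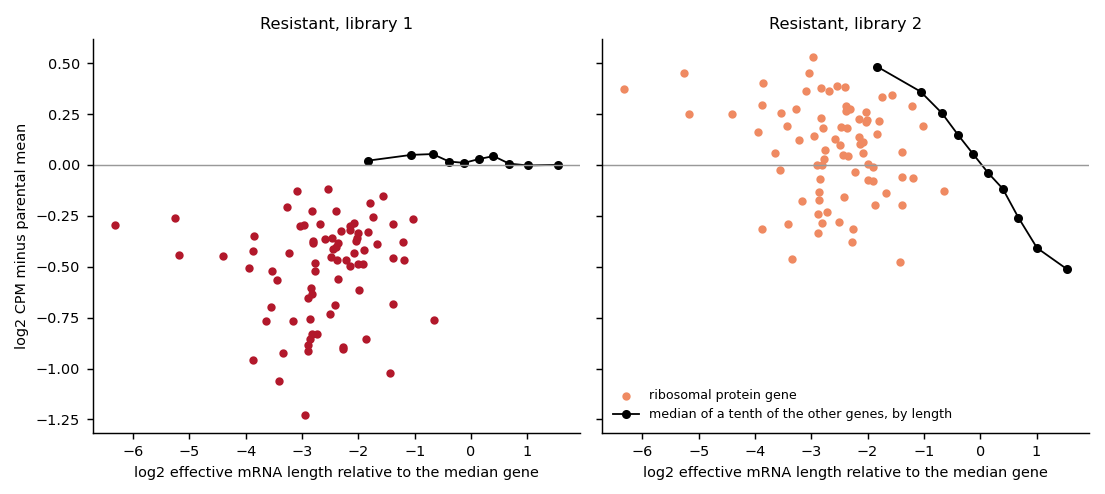
Log2 CPM minus the parental mean of the 78 canonical genes (coloured points) against log2 effective mRNA length relative to the median gene, with the median of each of 10 length classes of the other genes (black). In resistant library 2 the black line runs from 0.48 for the shortest class to -0.51 for the longest, in resistant library 1 it stays near 0, and most members lie below it in both.

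With the length trend of each library entered as an offset, the 2 resistant libraries came together. The offset takes out what genes of like length share within a library, so this is in part built in. The canonical median was -0.40 in library 1 (a fold of 0.758, 76 of 78 below 0) and -0.36 in library 2 (a fold of 0.778, 77 of 78 below 0), both against the same parental mean. Under this correction edgeR called 45 members lower and 0 higher. All 45 were canonical, or 57.7% of the canonical genes, against 9.96% of all genes called lower and 7.57% called higher. The calls comprised 16 of 32 small subunit and 29 of 46 large subunit genes. With the correction the 215 shortest other genes stood at 0.12 in library 1 and 0.11 in library 2, against 0.01 and 0.61 without it, so the libraries came together at that end but these genes were not centred on 0. The correction was chosen knowing the trend, and without it the same test called none. Each trend was fitted to these same libraries and entered as known. The SE and p-values with the length correction therefore leave out the uncertainty of the trend.

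**Figure D3:**
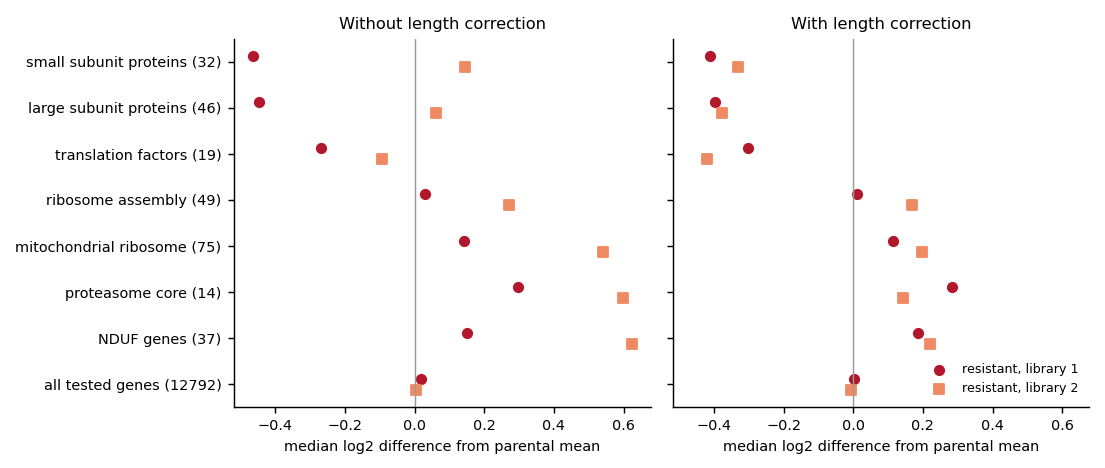
Median log2 difference from the parental mean in resistant library 1 and resistant library 2, for lists of genes (number tested in brackets) before and after the length correction. After it, both ribosomal subunits and the translation factors lie between -0.30 and -0.42 in both libraries, while the mitochondrial ribosome, proteasome and NDUF genes lie above 0.

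RPL13A, a large subunit protein also known as a translational silencer in interferon-treated monocytes, had the lowest ratio of the canonical genes. It had 1199 and 1747 CPM in the resistant libraries, against 2446 and 2419 CPM in the parental libraries. Both resistant values were below both parental ones, with a log2 fold change of -0.72 ± 0.21 (SE; edgeR adjusted p = 0.101) and of -0.97 ± 0.09 with the length correction (edgeR adjusted p = 0.00217). RPL26, which lies beside the exit tunnel and binds p53 mRNA, had 263 and 362 CPM in resistant libraries, against 494 and 503 CPM in parental ones. Its log2 fold change was -0.68 ± 0.19 (SE; edgeR adjusted p = 0.0934). Both genes passed in DESeq2 (adjusted p = 0.0188 for RPL13A and 0.027 for RPL26).

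RPS24, RPS7 and RPL31 came next in that order. RPS24, needed for processing of the small subunit's RNA, had 337 and 576 CPM in the resistant line, against 699 and 708 CPM in the parental line (log2 fold change -0.62 ± 0.26, SE; edgeR adjusted p = 0.191). RPS7, another small subunit protein that can bind MDM2, had 424 and 606 CPM in the resistant line and 781 and 798 CPM in the parental line. For RPL31, at the rim of the exit tunnel, the values were 413 and 646 CPM in resistant and 807 and 799 CPM in parental libraries. In each of the 3 both resistant libraries lay below both parental ones, library 1 further than library 2, and with the length correction the log2 fold changes were -0.85, -0.86 and -0.80 (edgeR adjusted p = 0.00335, 0.00258 and 0.00306).

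At the other end of the order, the lines overlapped. RPS15, a small subunit protein at the decoding side, had 321 and 567 CPM in the resistant libraries, against 398 and 388 CPM in the parental libraries (log2 fold change 0.18 ± 0.27, SE; edgeR adjusted p = 0.712). RPL10, which joins late and is needed to release the export adaptor NMD3, had 1556 and 2205 CPM in resistant and 1699 and 1677 CPM in parental libraries. RPS21 had 175 and 286 CPM in the resistant line, against 216 and 203 CPM in the parental line. For all 3, resistant library 1 was the lowest of the 4 libraries and library 2 the highest. The length correction put their log2 fold changes at -0.08, -0.08 and 0.0005, so the sign of RPS15 and RPL10 depends on it.

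The most abundant members per length were RPS27, RPL13, RPL10, RPL31 and RPS2. RPS27, a zinc-finger protein of the small subunit, had 8163 and 10359 TPM in resistant libraries, against 9784 and 10175 TPM in parental ones. RPL13, of the large subunit, had 5181 and 6808 TPM in the resistant line and 6310 and 6103 TPM in the parental line. RPS2, near the mRNA entry, had 4206 and 4540 TPM in the resistant line and 4478 and 4496 TPM in the parental line. In these 3 genes the lines overlapped. RPL31 did not overlap, with 3376 and 4084 TPM in resistant against 6360 and 6408 TPM in parental libraries. Mean TPM over the 4 libraries ran from 353 to 9620 with a median of 2056. TPM of very short mRNAs depends strongly on their assigned length.

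Among the stalk proteins, which recruit elongation factors, RPLP0 stood apart from its partners. RPLP0 had 1512 and 2121 CPM in resistant libraries, against 2454 and 2409 CPM in parental ones, without overlap (log2 fold change -0.42 ± 0.20, SE; edgeR adjusted p = 0.24). RPLP1 had 1169 and 1794 CPM in the resistant line and 1495 and 1500 CPM in the parental line, and RPLP2 had 522 and 791 CPM in the resistant line and 648 and 659 CPM in the parental line. For RPLP1 and RPLP2 the resistant libraries lay on either side of the parental pair. With the length correction the log2 fold changes were -0.67 for RPLP0 (edgeR adjusted p = 0.00452), -0.28 for RPLP1 (adjusted p = 0.0696) and -0.25 for RPLP2 (adjusted p = 0.0969). RPLP0 is often taken as a constant reference gene in quantitative PCR.

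RPL5 and RPL11, the proteins of the 5S particle, both missed the threshold without the length correction. RPL5 had 425 and 505 CPM in the resistant line and 548 and 563 CPM in the parental line, without overlap. RPL11 had 490 and 720 CPM in the resistant line and 655 and 616 CPM in the parental line, with overlap. Their log2 fold changes were -0.26 ± 0.15 and -0.07 ± 0.21 (SE; edgeR adjusted p = 0.335 and 0.854). With the length correction they were -0.49 for RPL5, which was then called, and -0.30 for RPL11 (edgeR adjusted p = 0.022 and 0.0593). Of the members made as fusions with a ubiquitin-type protein, RPS27A, one of the cell's ubiquitin sources, had 495 and 676 CPM in resistant and 803 and 839 CPM in parental libraries. FAU, which carries the ubiquitin-like FUBI, had 257 and 392 CPM in resistant and 294 and 307 CPM in parental libraries. RPS27A showed no overlap and FAU did. With the length correction RPS27A was at -0.72 and FAU at -0.14 (edgeR adjusted p = 0.00487 and 0.329).

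Paralogues were set against their canonical counterparts as ratios of counts within each library, a measure that scaling between libraries does not touch. The length trend of resistant library 2 need not cancel in it where the pair differs in length. RPL26L1, which differs from RPL26 at few residues and can take its place, had 18.0% and 16.4% of RPL26's counts in resistant libraries, against 7.13% and 7.30% in parental ones. The resistant ratios were higher in both libraries, by 2.38-fold on average. With 2 against 2 libraries the smallest exact permutation p is 0.333, so that test could not pass at 0.05, and no other test of the ratio was made. Most members have processed pseudogenes, which can take part of the reads. In CPM, RPL26L1 had 47.2 and 59.2 in resistant libraries and 35.2 and 36.7 in parental ones (log2 fold change 0.56 ± 0.18, SE; edgeR adjusted p = 0.113), and it was the only tested member with both resistant libraries above both parental ones.

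RPL22L1, a paralogue whose splicing and level are known to respond to RPL22, had 7.90% and 9.47% of RPL22's counts in resistant libraries, against 5.94% and 6.69% in parental ones, a ratio 1.38-fold higher on average without overlap. Its own CPM overlapped, at 19.1 and 32.8 in resistant and 19.7 and 22.2 in parental libraries. RPS27L, a p53 target, stood at 27.1% and 22.8% of RPS27 in the resistant line, against 21.6% and 23.3% in the parental line. RPL39L, known from testis and tumours, stood at 3.94% and 4.67% of RPL39 in the resistant line, against 4.27% and 3.94% in the parental line. RPL7L1, a nucleolar relative of RPL7 that acts in large subunit assembly, stood at 10.2% and 6.39% of RPL7 in the resistant line, against 9.48% and 10.1% in the parental line. These last 3 ratios overlapped between the lines. RPL7L1 had 1.55 of the effective length of the median gene and RPL7 had 0.225. With the length correction, RPL7L1 differed from the parental mean by -0.27 in resistant library 1 and -0.25 in resistant library 2. For RPL7 these values were -0.29 and -0.34. The part of length in the ratios was not tested.

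**Figure D4:**
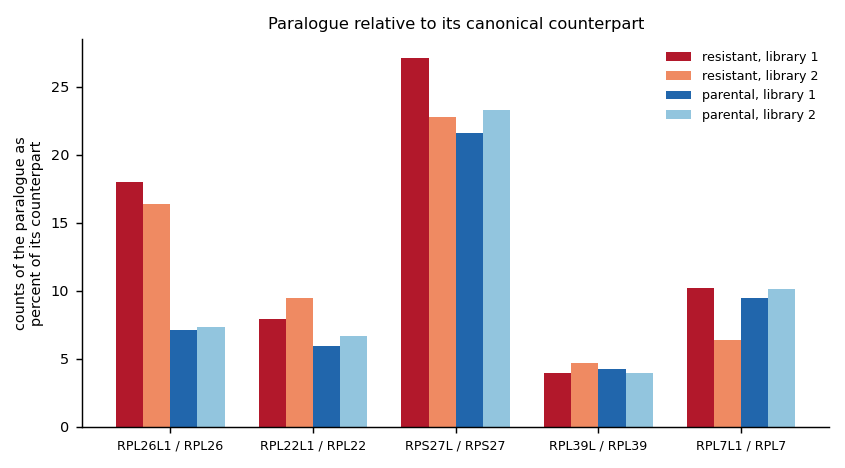
Counts of 5 paralogues as a percent of the counts of their canonical counterpart, with 1 bar per library. RPL26L1 reached 18.0% and 16.4% of RPL26 in the resistant libraries against 7.13% and 7.30% in the parental ones, and the ratios of RPS27L, RPL39L and RPL7L1 overlap between the lines.

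Composition within the family was tested by scaling each library to its canonical total. No member was called (0 of 84) by edgeR's quasi-likelihood test, where 0.227% of all tested genes were called higher and 0.305% lower. DESeq2's Wald test also called none, and its share over all genes is not given here. At an unadjusted p under 0.05, edgeR had RPL10 and RPL26L1 higher and RPL13A, RPL26, RPL31, RPS7 and RPS24 lower, against 14.9% and 3.65% of all genes. This scaling puts the median of all genes at 0.25. With the length correction, 12 members were called higher and 14 lower relative to the family, among 43.4% and 4.11% of all genes, whose median was then 0.42. The 14 included RPL6, RPL13A, RPL18, RPL26, RPL28, RPL31, RPL35A, RPLP0, RPS7, RPS12, RPS19, RPS24 and RPS27A. The 12 were FAU, RPL10, RPL35, RPL36, RPS15, RPS20, RPS21, RPS23, RPS29, RPSA and the paralogues RPL22L1 and RPL26L1. Without resistant library 1, 36 members were called higher and 26 lower (26.3% and 33.9% of all genes), and without resistant library 2, 36 and 25 (65.4% and 6.43%). The order of the genes recurred between separate pairs of libraries: the resistant to parental ratio of replicate 1 and that of replicate 2, which share no library, correlated across the 78 genes with Pearson 0.70 and Spearman 0.69. Across the other 12708 genes the values were 0.67 and 0.56. Genes are not independent replicates, and all points come from the same 4 libraries.

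Members and their chromosomal surroundings shared much of their order. The median log2 fold change of up to 50 neighbouring tested genes (25 on each side in RefSeq order, members of the family left out) correlated with the member's own across the 78 canonical genes (Pearson 0.74, Spearman 0.69), in points that share libraries and, for close members, neighbours. Without the members on chromosome 19 the values were 0.69 and 0.55 over 66 genes. The 17 members whose neighbours had a median below -0.2 had a median of -0.50, the 48 between had -0.13, and the 13 with neighbours above 0.2 had 0.03. Copy number of the lines was not measured in the files used here, and its part in this pattern was not tested.

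Chromosome 19, with 12 members, showed both ends. At one end, RPS15, RPL36 and RPS28 had log2 fold changes of 0.18, 0.12 and -0.0061, with neighbour medians of 0.29, 0.24 and 0.34. At the other, RPS16, RPS19, RPL18, RPL13A, RPS9 and RPL28 ran from -0.72 to -0.23, with neighbour medians from -0.37 to -0.23. Among these, RPS19, the first gene linked to Diamond-Blackfan anaemia, had -0.45 with neighbours at -0.32. Members were on the whole below their neighbours: 65 of 78 were lower, by a median of -0.20, and with the length correction the median difference was -0.40 in resistant library 1 (76 of 78 below) and -0.42 in resistant library 2 (75 of 78 below).

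**Figure D5:**
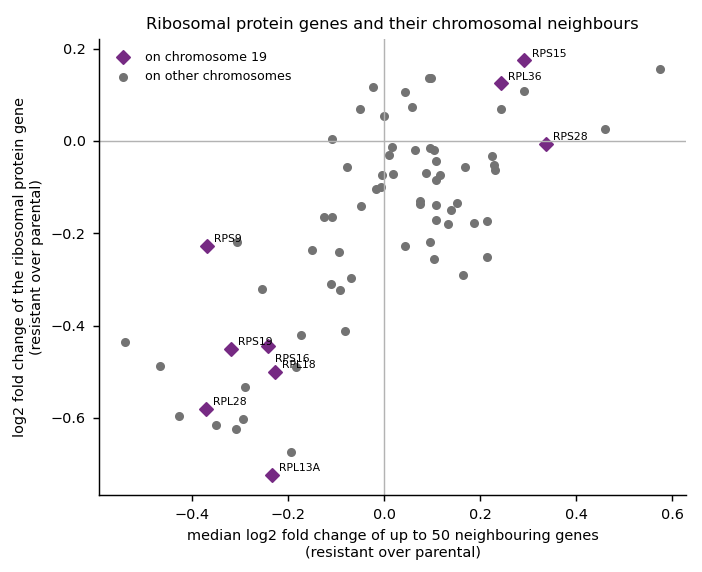
Log2 fold change of 74 canonical genes (vertical) against the median log2 fold change of up to 50 chromosomal neighbours (horizontal), resistant over parental, with 9 genes of chromosome 19 named. RPS15, RPL36 and RPS28 lie at the upper right and the other 6 named genes of that chromosome at the lower left.

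Other genes of translation gave the setting. Of 19 tested translation factors of the TOP class, EEF1A1 and EIF4A2 fell and none rose, where 3.41% of all genes fell. EEF1A1, which brings tRNAs to the ribosome, had 8258 and 8775 CPM in the resistant line and 14498 and 14230 CPM in the parental line (log2 fold change -0.75 ± 0.16, SE; edgeR adjusted p = 0.0471). EIF4A2, an RNA helicase, had 177 and 169 CPM in the resistant line, against 291 and 302 CPM in the parental line (log2 fold change -0.77 ± 0.14, SE; edgeR adjusted p = 0.0309). The list's median was -0.20, and 11 of the 19 were called lower with the length correction, where 9.96% of all genes were. Of 49 tested ribosome assembly genes, WDR12, of the PeBoW complex, rose (46.6 and 46.2 CPM in resistant, against 26.0 and 23.2 CPM in parental libraries) at an edgeR adjusted p of 0.0304, and SBDS, which helps to release EIF6 from the large subunit, fell (32.7 CPM in each resistant library, against 58.0 and 60.9 CPM in parental ones) at 0.0295. That was 1 call in each direction among the 49, where 2.96% of all genes were called higher and 3.41% lower. The assembly list's median was 0.12. With the length correction 5 of the list were called higher and 3 lower, against 7.57% and 9.96% of all genes. None of 17 regulators, among them MYC, MTOR and LARP1, was called, where 2.96% of all genes were called higher and 3.41% lower. Their median was -0.04. With the length correction 0 of them were called higher and 2 lower, against 7.57% and 9.96% of all genes.

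Nuclear genes of other large assemblies had medians above 0. Of 75 tested mitochondrial ribosomal protein genes, 3 rose, where 2.96% of all genes did. MRPL32 had 38.8 and 56.0 CPM in resistant against 16 and 19 CPM in parental libraries, MRPS17 had 29.6 and 43.2 CPM in resistant against 15.4 and 15.2 CPM in parental ones, and MRPL15 had 109 and 133 CPM in resistant against 57.6 and 51.4 CPM in parental ones (edgeR adjusted p = 0.026, 0.0354 and 0.0208). The list's median was 0.34, with 0.11 in library 1 and 0.20 in library 2 after the length correction. The 14 proteasome core genes had a median of 0.43 (0.28 and 0.14 with the correction) and PSMA2 rose (227 and 301 CPM in resistant, 124 and 125 CPM in parental libraries; edgeR adjusted p = 0.0271). The 37 NDUF genes, a symbol given to subunits of complex I, had a median of 0.41 (0.19 and 0.22). NDUFA4, whose product is now placed in cytochrome c oxidase, rose (edgeR adjusted p = 0.0231). It had 248 and 346 CPM in resistant libraries and 124 and 122 CPM in parental ones. PSMA2 and NDUFA4 were the only calls among the 14 proteasome core and 37 NDUF genes, where 2.96% of all genes were called higher. Of the 9 genes called in these lists, 9 lost the call without parental library 1 and 8 without parental library 2, MRPL32 being the exception. In those fits the spread came from the resistant pair alone. EEF1A1 also lost the call with no filter on counts, with a stricter filter and in limma-voom (adjusted p = 0.0505, 0.0649 and 0.0552). WDR12 lost it in both limma-trend fits (adjusted p = 0.154 and 0.161). EIF4A2 lost it in limma-trend with the pseudocount of 0.1 (adjusted p = 0.0536) and MRPS17 with no filter (adjusted p = 0.054), and all 9 missed an adjusted p of 0.01. The canonical ribosomal protein genes had -0.15 (-0.40 and -0.36). No test of the difference between lists was made. Chromosomal neighbours were examined for ribosomal protein genes only, so the part of location in the calls of these other lists was not tested.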

How the data were processed

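RNA was read in 2 resistant and 2 parental libraries, as 150-bp pairs per the labels' protocols. GRCh38, hg19, STAR, RSEM and DESeq2 1.40.2 are listed, with no role given, per the submitters' processing notes. The authors deposited RSEM estimated counts per gene symbol, of which 3.16% were fractional and were rounded here, and TPM values, which were used for levels between genes, effective length and 2 alternatives. The 28 symbols turned into dates were fitted but are not named. Samples were grouped by title. The H3K27ac peak lists were read as hg19, while the RefSeq gene table is in GRCh38.p14, so no peak was tied to a member.

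Genes were kept by filterByExpr, scaled by TMM and tested with edgeR 4.0.16's quasi-likelihood test (R 4.3.3) with a term for line, and p-values were adjusted by Benjamini-Hochberg over all 12792 tested genes at 0.05. Per-library values are log2 CPM (prior count of 2) minus the parental mean. The length correction entered a lowess trend (span 0.3) of each library on log2 effective length as offsets. The trend was fitted over all tested genes with a length, the ribosomal protein genes included. How far these genes moved the trend at the short end was not tested. It covered 12532 genes, with lengths taken from libraries with at least 20 counts. For composition, library sizes were replaced by the canonical totals. Tables and figures used Python 3.11.15, pandas 2.3.3, numpy 2.4.6 and matplotlib 3.10.9. Scripts were tested on simulated data with less spread between libraries than these data have, which checks the code and not the calls. Alternatives used DESeq2 1.42.0 and limma 3.58.1. Counts limit precision little here: the canonical genes averaged 69.2 to 2478 CPM in the parental line.

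The members, the lists, the length correction and the rule for named genes were chosen with earlier results of these data known. The rule took the 5 largest and 5 smallest fold changes (of which 3 and 5 are canonical), the 5 most abundant by TPM, the 3 widest gaps between resistant libraries, paralogue pairs, the stalk, the 5S particle and the fusion genes. RPL28, RPL35A, RPS12, RPS23, the genes of chromosome 19 and the members listed as calls were named after their values were seen. Some members are not reported singly here.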

Additional observations from a re-analysis of the deposited data

How the results depend on the processing

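Of 448 values of 28 named genes under alternatives, 61 gained a call, 49 changed sign and 338 kept their direction with no call. None of the 28 had a call to lose. The 4 values that leave out 1 library ranged from 0 to 42 members called higher, 0 to 80 lower, and, relative to the canonical total, 0 to 36 higher and 0 to 26 lower, and the canonical median from -0.46 to 0.11. Calls lower numbered 2 by DESeq2's Wald test, 4 by limma-trend on log2(TPM + 1) and on log2(TPM + 0.1), and 45 with the length correction, which gave 12 higher and 14 lower relative to the canonical total. Deviations of same-numbered libraries from their line's mean correlated at -0.05 over 12792 genes. With 2 libraries per line and a length trend in resistant library 2, this cannot decide whether the replicate numbers pair the libraries. A replicate block called 2 members lower, RPL13A and RPL26 (edgeR adjusted p = 0.0334 and 0.0395). The share of all genes called with that block is not given here, so this count has no background. The canonical median stayed below 0 in the other alternatives, from -0.39 to -0.07.

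Signs of uncalled genes turned with library totals in RPS27 (0.016), RPL13 (0.042), RPL39 (0.017), RPL7 (0.0027), RPLP1 (0.058) and RPL11 (0.0049), where the median of all genes moved to 0.10. The length correction turned RPS15 (-0.075), RPL10 (-0.082), RPS2 (-0.22), RPS27L (-0.17), RPL39L (-0.24), RPLP2 (-0.25) and FAU (-0.14). Limma-trend on log2(TPM + 1) turned RPS2 (-0.038), RPL39L (-0.085), RPLP2 (-0.073) and FAU (-0.0076), and on log2(TPM + 0.1) the same 4 (-0.038, -0.087, -0.073 and -0.0076). Limma-voom turned RPL39L (-0.050) and RPLP2 (-0.023), the replicate block both (-0.026 and -0.026), and no filter RPLP2 (-0.0091). RPLP2 was at -7.74e-05 with DESeq2 size factors and -6.69e-05 in its Wald test. The cause was not tested.

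Leaving out 1 library at a time gave ranges across 0 for 18 genes: RPL22L1 -0.14 to 0.65, RPS15 -0.30 to 0.53, RPL10 -0.12 to 0.39, RPS21 -0.27 to 0.45, RPS27 -0.45 to 0.25, RPL13 -0.41 to 0.27, RPS2 -0.19 to 0.22, RPS26 -0.64 to 0.23, RPL41 -0.77 to 0.059, RPL22 -0.46 to 0.065, RPS27L -0.18 to 0.28, RPL39L -0.51 to 0.44, RPL39 -0.45 to 0.25, RPL7 -0.33 to 0.14, RPLP1 -0.36 to 0.26, RPLP2 -0.33 to 0.28, RPL11 -0.38 to 0.18 and FAU -0.23 to 0.39.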
